A study of Mus musculus with 8 samples.

Results

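The 10 genes described here were Fos, Fosb, Jun, Junb, Jund, Atf3, Egr1, Ier2, Dusp1 and Zfp36, chosen by name as immediate early and AP-1 genes, out of 23469 genes in the deposited table. Levels are in TPM, a share of the library's reads scaled to transcript length, and all 10 genes averaged at least 1 TPM and were among the 8801 genes tested. The libraries came from macrophages of malignant ascites, the fluid that gathers in the peritoneal cavity of tumor-bearing mice. Female Ms4a3Cre-RosaTdT mice on a C57BL/6 background were injected intraperitoneally with ID8, a mouse ovarian surface epithelial line, at 4 to 5 weeks of age, and ascites was taken with a syringe 65 days later. AeEM were tdTomato-negative macrophages, taken as embryonic in origin (n = 4 libraries), and AeMM were tdTomato-positive macrophages, taken as monocyte-derived (n = 4 libraries). The ascites came from 4 mice, so AeEM and AeMM share animals, but which AeEM and which AeMM library came from the same mouse is not given. Both groups shared the genotype, the tumor and the fluid, and no tumor-free or freshly stimulated cells stood beside them. Ms4a3 drives Cre in granulocyte-monocyte progenitors, so the groups rest on that label, and cells of the monocyte line that escaped recombination would count as AeEM.

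Immediate early genes are transcribed within minutes of a signal, without new protein synthesis, through factors such as SRF and CREB that are already bound or ready to bind. Fos and Jun proteins pair to form AP-1, while Dusp1 and Zfp36 close the loop by switching off MAP kinases and by destroying AU-rich mRNAs. In macrophages they respond to microbial products, adhesion and growth factors, and they also rise when cells are handled after they leave the animal. Here the ascites was spun, its red cells were lysed, and the macrophages were kept on ice and sorted into chilled lysis buffer, with no enzyme digestion described for the mouse ascites.

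Short elements of the kinds tied to early transcription and to short-lived mRNA were looked for in the sequence of these genes. For the promoters, 4 members are shown because each carries a different one. Whether these elements act in these cells was not tested. In the promoter windows (GRCm38.p6, RefSeq), capitals mark the short CRE element TGACG and the TATA box TATAAA of Fos, the AP-1-like element TGACATCA of Jun, the full CRE element TGACGTCA of Dusp1 and the CArG box, the SRF element, of Zfp36. The windows lie at chr12:85473813-85473872 on the plus strand for Fos, and on the minus strand at chr4:95052234-95052293 for Jun, chr17:26508582-26508641 for Dusp1 and chr7:28379267-28379296 for Zfp36, the last within an annotated Zfp36 exon.
Fos promoter: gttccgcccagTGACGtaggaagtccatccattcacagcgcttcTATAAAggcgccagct
Jun promoter: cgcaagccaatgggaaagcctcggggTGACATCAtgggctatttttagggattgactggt
Dusp1 promoter: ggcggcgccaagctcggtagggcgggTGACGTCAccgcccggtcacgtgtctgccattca
Zfp36 promoter: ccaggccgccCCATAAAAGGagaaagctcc

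RefSeq promoters of 8 of the 10 genes were searched on both strands, except for TATAAA, which was searched on the gene's own strand only. Each ran from 250 bases before the start to 50 after it. Egr1 and Ier2 were not part of this search, so whether their promoters hold these elements was not tested. The short element TGACG stood in 5 of the 8 (Atf3, Dusp1, Fos, Fosb and Junb), against 20.8% of all 32851 promoters, and it is contained in TGACGTCA, which stood in Dusp1 alone against 1.79% of all. TGACATCA stood in Jun, against 3.62% of all, the CArG box in Zfp36, against 1.63%, and TATAAA in Fos and Junb, against 8.32%. The consensus AP-1 site TGACTCA stood in 0 of the 8, against 5.20%, and the SP1-like GGGCGG in 6 of the 8, against 35.7%. A match says only that the letters are in this window.

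The 3′ untranslated region (UTR) of an early gene often holds AU-rich elements, to which Zfp36 itself binds, and capitals below mark the core TATTTAT in 4 members, among them Zfp36. The stretches lie at chr12:85477103-85477132 (plus strand, Fos) and, on the minus strand, at chr4:95049078-95049107 (Jun), chr17:26506158-26506187 (Dusp1) and chr7:28376965-28376994 (Zfp36).
Fos 3′ UTR: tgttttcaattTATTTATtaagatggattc
Jun 3′ UTR: ttgcttgtgcaTATTTATaatagcgttcgt
Dusp1 3′ UTR: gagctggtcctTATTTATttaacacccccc
Zfp36 3′ UTR: agtgggcccttTATTTATgacgactttatt

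The core stood in the 3′ UTR of 7 of the 10 genes, against 25.6% of 20679 protein-coding genes with a 3′ UTR in GENCODE M21. Zfp36 and Dusp1 held 3 copies each, Fos held 2, and Fosb, Jun, Jund and Atf3 held 1 each. Junb, Egr1 and Ier2 held none. Among genes whose 3′ UTR was of like length to that of a member, the share with the core ran between 12.04% and 43.04%.

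The 10 genes were expressed over a wide range, and their order of level was led by Zfp36. Levels are given as log2(TPM + 1), which allows genes of different length to be compared. Zfp36, Junb, Fos and Ier2 averaged between 7.08 and 7.89 over the 8 libraries and stood at percentile 94.98 or above among the tested genes. Egr1 followed at 5.60, Jund at 4.55, Jun at 4.01 and Dusp1 at 3.48. Atf3 at 2.00 and Fosb at 1.35 stood low, at percentiles 31.8 and 13.1 of the tested genes. Ier2 and Egr1, Egr1 and Jund, and Dusp1 and Atf3 were the neighbours in this order whose ranges over the libraries did not overlap. Zfp36 was above Junb in 8 of 8 libraries, whereas Junb was above Fos in 6 of 8 and Fos above Ier2 in 6 of 8, so the order of these last 3 was within their spread.

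**Figure D1:**
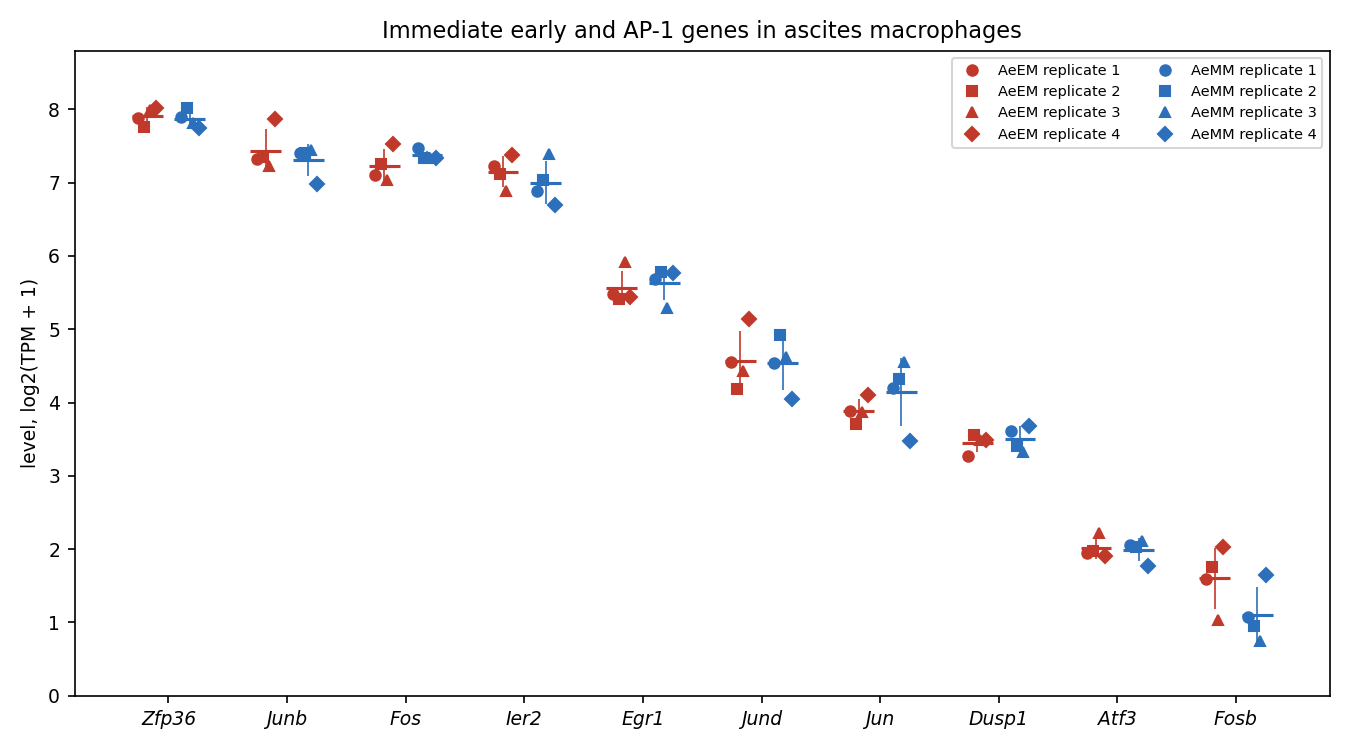
Level of each gene, log2(TPM + 1), in the 4 AeEM libraries (red, left) and the 4 AeMM libraries (blue, right), with a symbol for each replicate, the mean (bar) and the SD (line). The groups overlap for every gene, and Zfp36, Junb, Fos and Ier2 are at 6.69 or above in every library.

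None of the 10 genes passed the test between AeEM and AeMM. The comparison asks whether macrophages of embryonic and of monocyte origin, in the same fluid, differ in this early program. It used limma (unpaired, two-sided) with Benjamini-Hochberg adjustment over the 8801 tested genes, of which 1.25% were higher and 1.16% lower in AeEM at an adjusted p under 0.05. At an unadjusted limma p under 0.05, 1587 of the 8801 genes and 0 of the 10 passed. In an exact permutation test over the 70 ways to divide the libraries 4 and 4, the smallest p was 0.143, for Fosb, where the smallest the design allows is 0.0286. The groups overlapped for all 10 genes, while 12.2% of the tested genes had no overlap. The difference, AeEM minus AeMM, was positive for 6 genes and negative for 4, with a median of 0.028 against −0.006 over all tested genes. In bulk libraries fewer expressing cells and less mRNA per cell cannot be told apart.

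Fos encodes the founding partner of Jun in AP-1 and is the textbook early gene. Its level was 7.10, 7.26, 7.04 and 7.53 in AeEM replicates 1 to 4 and 7.47, 7.34, 7.34 and 7.34 in AeMM replicates 1 to 4. AeEM libraries were spread on both sides of a tight AeMM group. Fos averaged 7.23 ± 0.22 in AeEM and 7.37 ± 0.07 in AeMM (SD, n = 4 each), a log2 difference of −0.14 (SE 0.11, limma adjusted p = 0.558) whose 95% interval ran from −0.38 to 0.10, or 0.769 to 1.07-fold.

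Fosb, a Fos relative with a splice form that lasts longer in neurons, had the widest difference and the lowest level. It was at 1.59, 1.75, 1.04 and 2.03 in AeEM and 1.08, 0.94, 0.75 and 1.64 in AeMM. AeEM was above AeMM at each replicate number, but AeEM replicate 3 fell among the AeMM libraries and AeMM replicate 4 among the AeEM ones. Fosb averaged 1.60 ± 0.42 in AeEM and 1.10 ± 0.38 in AeMM (SD, n = 4 each), a log2 difference of 0.50 (SE 0.25, limma adjusted p = 0.349, 95% interval −0.07 to 1.07, or 0.952 to 2.10-fold). At 0.682 to 3.08 TPM the pseudocount of 1 understates its change, and the difference was 0.79 with a pseudocount of 0.1 TPM and 0.20 with 5 TPM. Fos made up 98.6% ± 0.4 of the summed TPM of Fos and Fosb in AeEM and 99.3% ± 0.4 in AeMM (SD, n = 4 each).

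Jun, the subunit that binds DNA with Fos and drives growth programs, was at 3.88, 3.70, 3.87 and 4.10 in AeEM and 4.20, 4.32, 4.56 and 3.48 in AeMM. AeMM held both the highest and the lowest library. The log2 difference was −0.25 (SE 0.21, limma adjusted p = 0.598, 95% interval −0.74 to 0.23). Without AeMM replicate 4 it was −0.47 (limma adjusted p = 0.112).

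Junb, which often opposes Jun and is prominent in myeloid cells, was at 7.32, 7.34, 7.22 and 7.86 in AeEM and 7.40, 7.41, 7.44 and 6.99 in AeMM. The 2 extremes were the replicates numbered 4, and the other 6 libraries lay within them, between 7.22 and 7.44. The log2 difference was 0.13 (SE 0.16, limma adjusted p = 0.738, 95% interval −0.22 to 0.48), and it was −0.01 without AeEM replicate 4.

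Jund, the family member that is least dependent on stimulation, was at 4.55, 4.18, 4.43 and 5.14 in AeEM and 4.54, 4.93, 4.63 and 4.05 in AeMM. AeEM replicate 4 was again the highest and AeMM replicate 4 the lowest. The log2 difference was 0.04 (SE 0.23, limma adjusted p = 0.960, 95% interval −0.49 to 0.56). It turned to −0.15 without AeEM replicate 4 and to −0.13 without AeMM replicate 4.

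Junb carried most of the Jun family mRNA in every library. Its share of the summed TPM of Jun, Junb and Jund was 82.4% ± 1.6 in AeEM and 80.1% ± 2.3 in AeMM (SD, n = 4 each). Jund made up 11.0% ± 1.4 in AeEM and 11.3% ± 1.5 in AeMM, and Jun 6.63% ± 0.77 in AeEM and 8.53% ± 1.47 in AeMM. The shares overlapped between the groups for all 3 genes.

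Atf3, a stress-induced factor that pairs with Jun and restrains inflammatory genes in macrophages, was at 1.95, 1.98, 2.22 and 1.90 in AeEM and 2.06, 2.03, 2.11 and 1.76 in AeMM. It stayed low, at 2.39 to 3.65 TPM, the groups overlapped, and the log2 difference was 0.02 (SE 0.12, limma adjusted p = 0.958, 95% interval −0.26 to 0.30).

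Egr1, a zinc finger factor under SRF, was at 5.49, 5.41, 5.92 and 5.44 in AeEM and 5.69, 5.79, 5.28 and 5.77 in AeMM. AeEM replicate 3 was the highest library and AeMM replicate 3 the lowest, the reverse of the other 3 replicate numbers. The log2 difference was −0.07 (SE 0.15, limma adjusted p = 0.872, 95% interval −0.40 to 0.27).

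Ier2, an early nuclear protein, was at 7.22, 7.11, 6.89 and 7.38 in AeEM and 6.89, 7.04, 7.39 and 6.69 in AeMM. The groups covered nearly the same range, and the log2 difference was 0.15 (SE 0.16, limma adjusted p = 0.680, 95% interval −0.20 to 0.50).

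Dusp1, the nuclear phosphatase that dephosphorylates p38 and JNK, was at 3.27, 3.55, 3.49 and 3.49 in AeEM and 3.61, 3.40, 3.33 and 3.69 in AeMM. Its log2 difference was −0.06 (SE 0.11, limma adjusted p = 0.857, 95% interval −0.31 to 0.20).

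Zfp36 encodes tristetraprolin, which binds AU-rich elements and brings the deadenylase to the mRNA. It was at 7.88, 7.76, 7.99 and 8.01 in AeEM and 7.90, 8.02, 7.81 and 7.74 in AeMM. On the log2 scale it had the narrowest range of the 10 genes, 0.27 over all 8 libraries (213 to 258 TPM), and a log2 difference of 0.04 (SE 0.08, limma adjusted p = 0.843). Its 95% interval, −0.14 to 0.23, was 0.906 to 1.17-fold, whereas those of Jun (0.6004 to 1.172-fold) and Fosb (0.952 to 2.10-fold) were wider and held 0 change as well as sizeable ones.

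**Figure D2:**
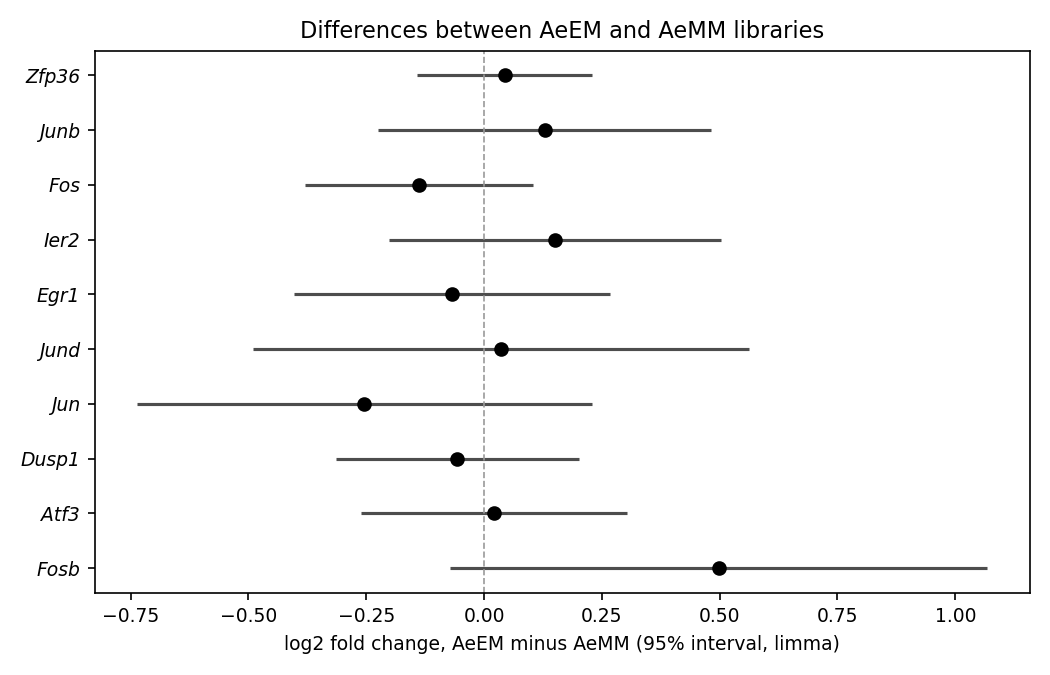
Log2 fold change of each gene, AeEM minus AeMM (point), with its 95% interval from limma (line), in the order of level. Every interval includes 0, the narrowest is that of Zfp36 and the widest is that of Fosb, −0.07 to 1.07.

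The deposited values limit how replicates can be read. For each gene the mean was nearly the same in each of 3 sets, made of the replicates numbered 1, of those numbered 2, and of those numbered 3 or 4, with set means of the 10 genes differing by at most 0.061, so an earlier step made the sets equal. In replicates 1 and 2 an AeEM value above the gene's mean therefore went with an AeMM value below it, and how the sets differed before that step cannot be seen. Replicates 3 and 4 held the highest value for 9 of the 10 genes and the lowest for 9 of 10, and they did so for 82.1% and 81.0% of all tested genes. A limma fit that also modelled the sets called 0.159% of the tested genes and 0 of the 10, and at an unadjusted p under 0.05 it passed 9.64% of the tested genes and 0 of the 10. Blocking on the replicate number, limma called 5 genes in all and 0 of the 10. The difference kept 1 sign in all 3 sets for 4 of the 10 genes: Fos (−0.37, −0.08 and −0.05), Jun (−0.32, −0.62 and −0.04), Fosb (0.51, 0.81 and 0.34) and Ier2 (0.34, 0.08 and 0.09).

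The spread between libraries of a group was set beside that of other genes, since early genes also move with handling. The median within-group SD of the 10 genes was 0.219, against 0.193 over all tested genes. Low genes vary more, so each SD was also ranked among genes within 0.5 of the same mean level. In AeEM, Junb stood at percentile 94.9, Jund at 94.5, Fos at 86.6, Egr1 at 82.0 and Ier2 at 80.6. In AeMM, Ier2 stood at 97.1, Jun at 94.9, Jund at 91.9, Junb at 88.6 and Egr1 at 83.5. Jund, Junb, Ier2 and Egr1 were thus above the 80th percentile in both groups. Fos stood at 86.6 in AeEM and 14.2 in AeMM, and Jun at 41.6 in AeEM and 94.9 in AeMM. Fosb stood at 78.0 in AeEM and 75.5 in AeMM, and Zfp36, Dusp1 and Atf3 ranked between 23.0 and 51.0 in either group.

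**Figure D3:**
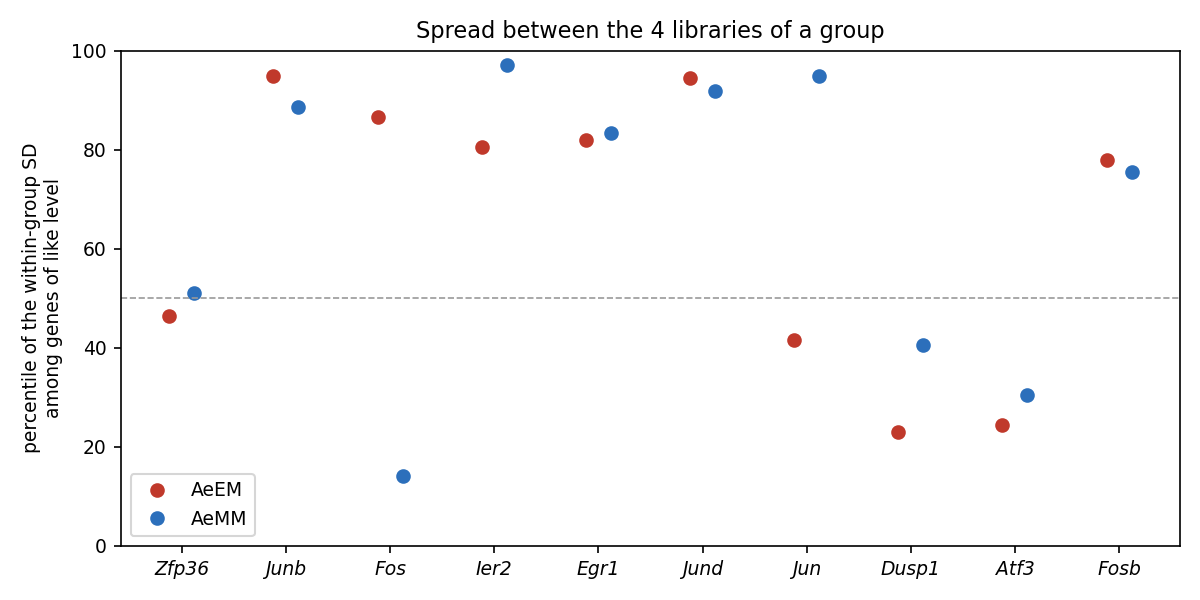
Percentile of each gene's SD over the 4 libraries of a group among genes of like level, for AeEM (red, left) and AeMM (blue, right), with the dashed line at the 50th percentile. The SDs of Junb, Jund, Ier2 and Egr1 rank above 80 in both groups, whereas Fos ranks at 86.6 in AeEM and 14.2 in AeMM.

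Many of the extremes lay in the libraries numbered 4. AeEM replicate 4 was the highest of the 8 libraries for Fos, Fosb, Junb and Jund, and it was highest for 20.2% of all tested genes. AeMM replicate 4 was the lowest for Jun, Junb, Jund, Atf3, Ier2 and Zfp36, and it was lowest for 25.5% of all tested genes. Jun, Junb, Jund, Ier2 and Zfp36 were higher in replicate 4 than in replicate 3 of AeEM and lower in replicate 4 than in replicate 3 of AeMM, a pattern found in 24.7% of all tested genes. Among the 26 other immediate early genes tested, AeEM replicate 4 was the highest for 2 and the lowest for 8.

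**Figure D4:**
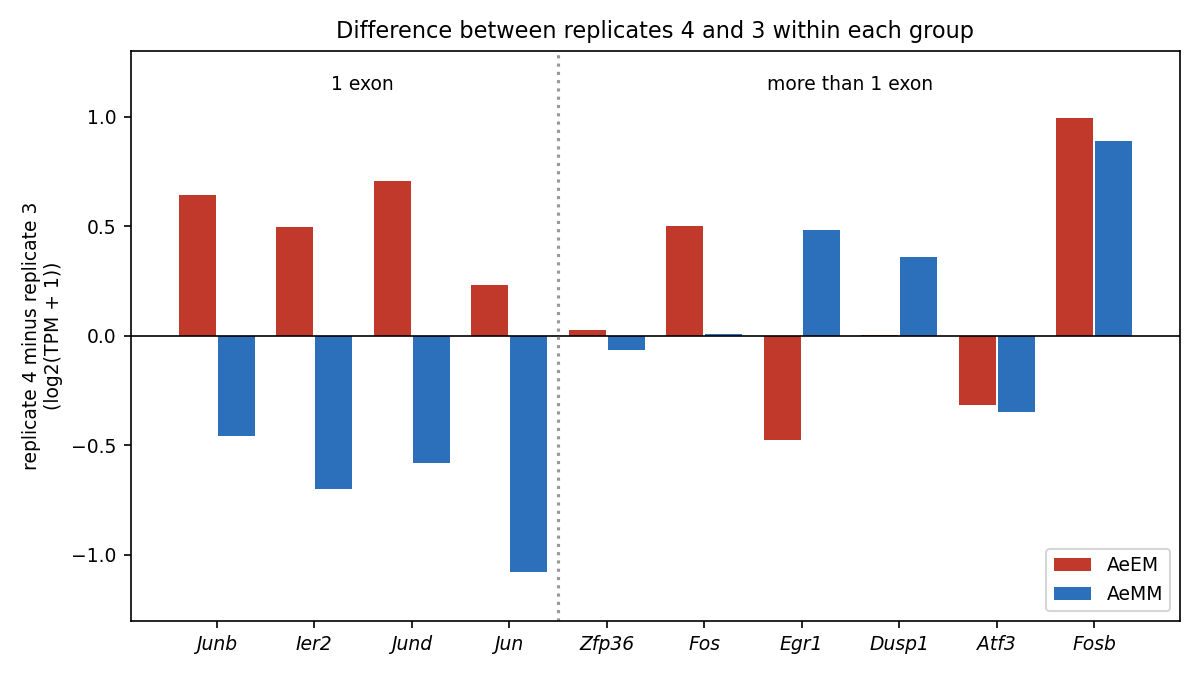
Replicate 4 minus replicate 3, in log2(TPM + 1), within AeEM (red, left) and within AeMM (blue, right), with the genes of 1 exon on the left and those of more exons on the right. Exons were counted in 1 chosen transcript per gene. All 4 genes of 1 exon are higher in replicate 4 of AeEM and lower in replicate 4 of AeMM.

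The pattern was then set beside gene structure, a choice made after these values were seen. Exons were counted in 1 protein-coding transcript chosen per gene from GENCODE M21. For Junb that transcript has 1809 bases, while all its annotated transcripts together cover 2301 exonic bases. In the chosen transcripts Jun (GRCm38, chr4:95049034-95052222), Junb (chr8:84974484-84978718), Jund (chr8:70698949-70700616) and Ier2 (chr8:84661331-84662852) have a single exon, whereas 2.74% of the 8252 tested genes that matched the annotation do. The median difference between replicates 4 and 3 of these 4 genes was 0.57 in AeEM and −0.64 in AeMM. In the other 6 genes it was 0.01 in AeEM and 0.18 in AeMM, and 1 of the 6 showed the pattern.

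The transcript of Jund was 67.1% G and C, that of Junb 62.6%, that of Ier2 60.9% and that of Jun 55.5%, against a median of 50% over the tested genes. Across all tested genes the pattern stood in 16.8% of the quintile lowest in G and C and in 36.5% of the highest quintile. Replicate 4 minus replicate 3 of AeMM had a median of 0.04 in the lowest quintile and −0.20 in the highest. Single-exon genes as a whole were near the rest, at 26.1% against 24.5% of genes with more exons. The part of base composition or of gene structure in the spread of the 10 genes was not tested.

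Reads of a gene and its antisense partner cannot be told apart without strand, and no strand setting was given in the sources used here. Jund shares 52.6% of its exonic bases with the antisense gene Gm11175, Junb 7.52% with Prdx2, Jun 7.28% with Junos and Zfp36 (chr7:28376784-28380253) 3.60% with Gm44710, so the level of Jund in particular is uncertain. Fos (chr12:85473890-85477273), Fosb (chr7:19302696-19310051), Atf3 (chr1:191170296-191218039), Egr1 and Ier2 share no exonic bases with another gene.

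The genes whose pattern over the 8 libraries was most like that of Fos were Dbt, Golga1, Srsf2, Bpnt1 and Fam120a. Their mean absolute distance from Fos in standardised values was 0.140 to 0.198, where the median over 8800 genes was 1.09. Junb was the nearest of the other 9 genes at 0.692 (rank 915), followed by Jund at 0.871.

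Genes that work with the 10 were read from 7 lists with 128 genes, of which 97 were tested. Of these, 1 was higher (1.03%, against 1.25% of all tested genes) and 3 were lower in AeEM (3.09%, against 1.16%) by limma at an adjusted p under 0.05. None passed when the sets were modelled, where 0.159% of all tested genes did, nor with the replicate number as a block, where the limma adjusted p was 0.279 for Batf3, 0.272 for Maf, 0.222 for Trib1 and 0.318 for Plk2. At an unadjusted limma p under 0.05 with the sets modelled, 16 of the 97 passed, beside 848 of the 8801 tested genes (9.64%).

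Among 11 tested AP-1 partners, 1 was higher, 1 was lower and 9 did not pass, with a median difference of −0.02. Batf3, which pairs with Jun and is required for cross-presenting dendritic cells, was at 3.40, 3.18, 3.26 and 3.21 in AeEM and 2.62, 2.79, 2.78 and 2.68 in AeMM, a log2 difference of 0.54 (SE 0.09, limma adjusted p = 0.024). The groups did not overlap, and the limma adjusted p was 0.268 when the sets were modelled. Maf, a macrophage identity factor that can pair with Fos, was at 6.50, 6.46, 6.71 and 6.65 in AeEM and 7.11, 7.15, 7.09 and 6.80 in AeMM, a log2 difference of −0.46 (SE 0.10, limma adjusted p = 0.047, or 0.274 when the sets were modelled). Atf4, the factor of the integrated stress response, had a difference of −0.19 (limma adjusted p = 0.185) and did not pass. Leaving out 1 library at a time, the adjusted p of Batf3 by limma ran from 0.037 to 0.1001 and that of Maf from 0.022 to 0.144.

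Some dendritic cell markers, Cd209a and Itgax, were higher in AeEM beside Batf3. The summed TPM of the 6 markers was 43.5 to 103 in AeEM and 6.29 to 11.7 in AeMM, and Cd209a alone was 36.0 to 96.1 TPM in AeEM and 1.95 to 8.01 TPM in AeMM, while Flt3 and Zbtb46, which define the lineage, were below 1 TPM in every library. Of the 6, 2 were tested and both were higher in AeEM. Xcr1 and Clec9a, markers of cross-presenting dendritic cells, were not tested and overlapped between the groups. Xcr1 was at 0.557 to 1.35 TPM in AeEM and 0.310 to 0.644 TPM in AeMM. Clec9a was at 0.0932 to 1.27 TPM in AeEM and 0.134 to 2.03 TPM in AeMM. The part of these markers in the Batf3 difference was not tested. Macrophage markers summed to 69200 to 77285 TPM in AeEM and 70303 to 85409 TPM in AeMM, mostly from Lyz2, and none of the 8 passed. Csf1r (156 to 185 TPM in AeEM, 190 to 215 TPM in AeMM), Mertk and Adgre1 were lower in AeEM without overlap. Cd68 was higher in AeEM without overlap (3751 to 3925 TPM against 3367 to 3715 TPM), and the other macrophage markers overlapped. Haemoglobin transcripts summed to 7663 to 12740 TPM in AeEM and 4207 to 10471 TPM in AeMM. T cell markers summed to 0.484 to 2.68 TPM in AeEM and 3.06 to 7.82 TPM in AeMM, without overlap, but none of them was tested.

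Of 26 other immediate early genes tested, 2 were lower in AeEM, 0 were higher and 24 did not pass, with 13 differences positive and 13 negative. Trib1, a pseudokinase that directs C/EBP factors to the proteasome, was at 4.62, 4.60, 4.94 and 4.52 in AeEM and 5.26, 5.27, 5.17 and 5.11 in AeMM, a log2 difference of −0.53 (SE 0.10, limma adjusted p = 0.034). Plk2, a polo-like kinase, was at 4.26, 4.11, 3.99 and 4.14 in AeEM and 4.44, 4.63, 4.85 and 4.55 in AeMM, a log2 difference of −0.50 (SE 0.11, limma adjusted p = 0.049). The groups did not overlap for either gene, and modelling the sets gave limma adjusted p-values of 0.259 for Trib1 and 0.314 for Plk2. Plk2 did not pass when any 1 library was left out (limma adjusted p 0.076 to 0.138), and Trib1 passed in 1 of 8 such fits. Nfkbia, the inhibitor that NF-kB itself induces, and Mcl1, a short-lived survival factor, were the highest in level and differed by 0.01 and −0.07. Summed markers of some other leukocytes, among them the T cell markers given above, were lower in AeEM beside these genes. Neutrophil markers summed to 18.8 to 22.7 TPM in AeEM and 32.0 to 46.7 TPM in AeMM, and NK cell markers to 0.215 to 1.76 TPM in AeEM and 4.29 to 11.1 TPM in AeMM. The neutrophil sum came mostly from S100a8 and Csf3r, with S100a9 at most 1.02 TPM and Camp at most 0.651 TPM in any library. The NK sum came mostly from Nkg7, and the neutrophil granule gene Ngp and the NK receptor gene Ncr1 were near 0. B cell markers overlapped, at 34.3 to 84.6 TPM in AeEM and 65.2 to 76.3 TPM in AeMM, as did mast cell markers (at most 7.77 TPM in AeEM and 1.37 TPM in AeMM) and eosinophil markers (at most 0.888 TPM in AeEM and 1.51 TPM in AeMM). Of 3 tested monocyte markers, 1 was lower in AeEM and 0 were higher. Ly6c2 was at 0.160 to 2.43 TPM in AeEM and 3.68 to 6.51 TPM in AeMM, without overlap. Ccr2 overlapped, at 155 to 244 TPM in AeEM and 126 to 181 TPM in AeMM, as did Plac8. The part of all these markers in the differences of Maf, Trib1 and Plk2 was not tested.

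**Figure D5:**
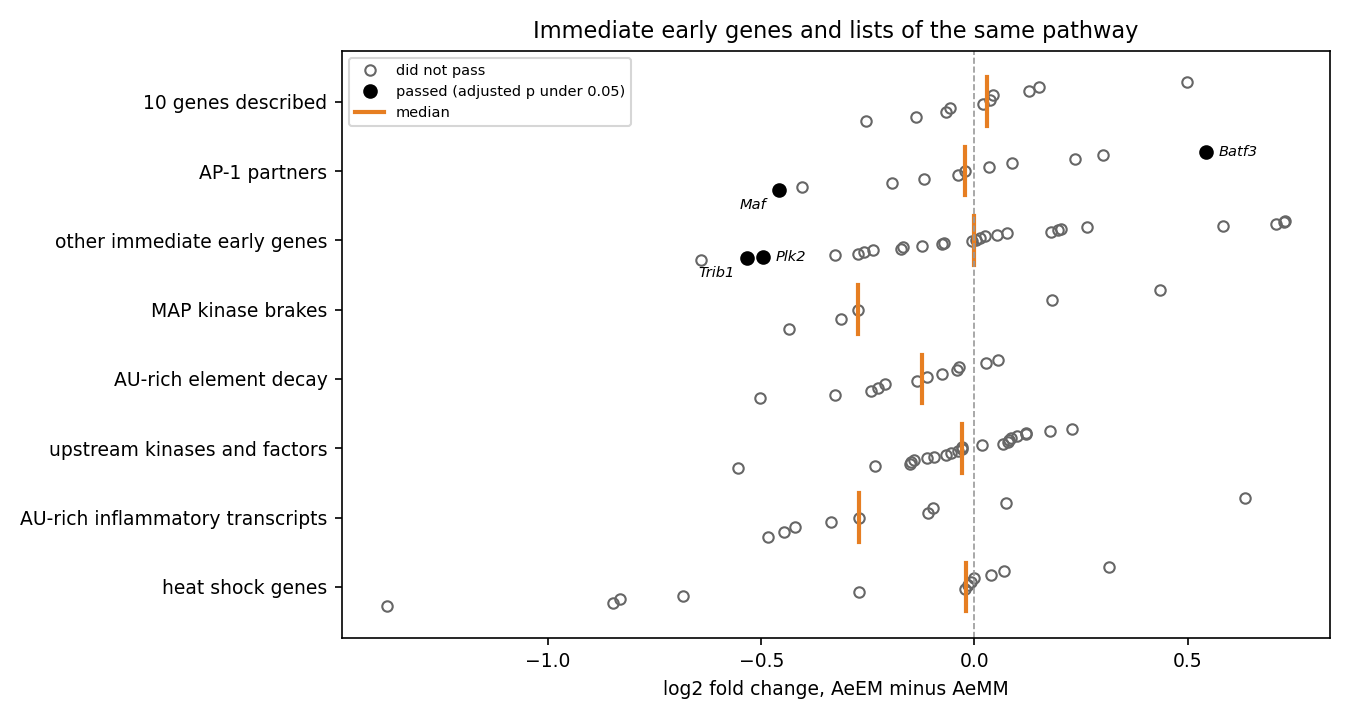
Log2 fold change, AeEM minus AeMM, of every tested gene of the 10 genes described and of the 7 lists, with filled points for genes that passed the limma test and a bar at each median. Batf3 is the filled point to the right of 0, and Maf, Trib1 and Plk2 are those to the left.

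No gene passed in the other 5 lists. MAP kinase brakes (5 tested) had a median of −0.27, and the highest of them, Dusp6, which dephosphorylates ERK, had a difference of −0.31 (limma adjusted p = 0.353). AU-rich element decay factors (12 tested) were negative in 10 of 12 with a median of −0.12, against −0.006 over all genes. Zfp36l2, a close relative of Zfp36, averaged 7.97 ± 0.07 in AeEM and 8.18 ± 0.04 in AeMM (SD, n = 4 each) with no overlap, a difference of −0.21 that did not pass (limma adjusted p = 0.092). Pabpc1, the poly(A)-binding protein, differed by −0.14 (limma adjusted p = 0.264).

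AU-rich inflammatory transcripts (9 tested), among them known targets of Zfp36, had a median of −0.27. The highest of these, the chemokines Ccl2 and Ccl3, differed by 0.07 (limma adjusted p = 0.783) and −0.11 (0.722). The 22 tested kinases and factors upstream of early genes had a median of −0.03, with Nras at −0.03 and Mapk3, which encodes ERK1, at 0.12.

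Heat shock genes, which also rise when cells are handled, had a median of −0.02 over 12 tested, and the most abundant, Hspa8 and Hsp90ab1, differed by 0.04 and 0.07. Over the 12, 3 differences were positive and 9 negative. At an unadjusted limma p under 0.05, 5 of the 12 passed, against 18% of all tested genes. The inducible genes Hspb1 and Hspa1a, picked from the 12 after their values were seen, were at lower means in AeEM without passing. Hspb1 averaged 4.15 ± 0.95 in AeEM and 5.53 ± 0.44 in AeMM (SD, n = 4 each; limma adjusted p = 0.141), and Hspa1a averaged 2.63 ± 0.52 in AeEM and 3.46 ± 0.46 in AeMM (SD, n = 4 each; limma adjusted p = 0.182). In AeMM replicate 4, where 6 of the 10 early genes were lowest, 5 of the 12 heat shock genes were lowest and 2 were highest.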

How the data were processed

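RNA of sorted macrophages was made into Smart-seq2 libraries with oligo-dT priming, 4 AeEM and 4 AeMM, and sequenced as paired ends. The authors used STAR 2.7.2a on mm10 and featureCounts of Subread. The deposited table holds log2 values, log2(TPM + 1), of 23469 genes. In it 3 sets of libraries have nearly equal means per gene, and an earlier adjustment was inferred from these values. The steps for TPM and for this adjustment were not given in the sources used here, and neither read counts nor depth can be had from the table. Between 8498 and 8753 genes reached 1 TPM per library, and 1594 to 2257 values per library were slightly below 0 and set to 0 TPM for sums and filters.

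Genes averaging at least 1 TPM over the 8 libraries (8801) were tested with limma 3.58.1 (R 4.3.3; unpaired, with trend, two-sided, Benjamini-Hochberg, adjusted p under 0.05), tested beforehand on simulated data. Single genes also had an exact permutation test (scipy 1.17.1). The libraries came from 4 mice, so both groups share animals; the main test is unpaired, as the study used unpaired tests, and the replicate number was tried as a block. Gene models came from GENCODE M21 (GRCm38) and promoters from RefSeq (GRCm38.p6).

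The members and lists were chosen with earlier results of these data known. Besides the 10 genes, the text names from each list the genes that passed and the 2 of highest level, and the 5 genes nearest Fos, with Hspb1 and Hspa1a added after their values were seen. An item that this rule names is not reported here. Alternatives were the pseudocount, the filter on low values, the scaling, the trend, the 3 sets or the replicate number as a term, replicates 3 and 4 alone, and each library left out. The 10 genes were given no p adjusted over themselves alone.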

Additional observations from a re-analysis of the deposited data

Results flagged for a closer look

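In 3 of the 20 groups examined (10 genes in AeEM and in AeMM, 4 libraries each), 1 library lay far from the other 3 by Dixon's criterion, which chance meets in about 1 of 20 groups. Egr1 was at 5.92 in AeEM replicate 3, where the other AeEM libraries lay between 5.41 and 5.49. Junb was at 6.99 in AeMM replicate 4, against 7.40 to 7.44 in the other AeMM libraries. Fos was at 7.47 in AeMM replicate 1, with the other AeMM libraries at 7.34. The adjustment of the 3 sets shapes the spread within each group, and its part in these values was not tested.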

How the results depend on the processing

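None of the 10 genes passed limma's adjusted test in any of the 178 refits of a gene under an alternative, where the lowest adjusted p was 0.112, for Jun without AeMM replicate 4. In 9 refits the difference changed sign: Atf3 with quantile normalization (−0.0059), Egr1 in replicates 3 and 4 only (0.15), and, with single libraries left out, Atf3 (−0.055 to 0.062), Dusp1 (−0.116 to 0.0050), Junb (−0.014 to 0.200) and Jund (−0.151 to 0.168). The 212 genes that passed over the whole table became 136 without the mean-variance trend, 14 with the 3 sets as a term, 0 in replicates 3 and 4 only (566 at an unadjusted limma p under 0.05), and 73 to 203 with 1 library left out. The 4 genes that passed in the other lists became 1 without a filter, 1 without the trend, 0 with the 3 sets as a term, 0 in replicates 3 and 4 only, and 0 to 5 with 1 library left out. The median within-group SD was 0.339 in replicates 3 and 4 only. Both groups number their replicates 1 to 4 and come from the same 4 mice, but which number marks which mouse is not given. The adjustment makes the libraries numbered 1, and those numbered 2, deviate in opposite directions, so the pairing could not be checked from the values. With the replicate block, 5 genes over the whole table and 0 of the other lists passed, and Fosb had an unadjusted p of 0.0272 by limma (adjusted p = 0.397). The 5 TPM filter left out Fosb and Atf3. Read depth is unknown and no counting error can be given.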
